A study of Rattus norvegicus with 6 samples.

Results

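Cytochrome P450 genes of families 1 to 4 were measured in rat liver around the onset of autoimmune diabetes. They were taken as the probe sets of the array whose single annotated gene symbol was Cyp, a digit from 1 to 4 and a letter. This gave 46 probe sets for 42 genes among 31042 probe sets tested, of which 20826 carried 1 symbol. Family 1 had 3 probe sets, family 2 had 27, family 3 had 4 and family 4 had 12, in 18 subfamilies, of which 10 had several probe sets. A further 4 probe sets carried several symbols, all of these P450 families, and were not members. Cyp2b1, Cyp2b2, Cyp2d1, Cyp3a62 and Cyp4a2 had no probe set with their symbol alone and are not analysed here.

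The study followed liver gene expression in BBDR rats, a BioBreeding line that resists diabetes unless it is homozygous for the lymphopenia (lyp) allele brought in from the diabetes-prone BB rat. BBDR.lyp/lyp rats, which are lymphopenic and become diabetic, were sampled before hyperglycemia at 50 days of age and after its onset at 55 days, each within 5 days. BBDR.+/+ rats of 55 days, congenic animals with the normal allele that stay normoglycemic, served as the control. Each of the 3 groups had 2 arrays, and the pre-hyperglycemia arrays are also the younger ones. Age cannot be told apart from glycemic state in post- versus pre-hyperglycemia, nor from the lyp genotype in pre-hyperglycemia versus BBDR.+/+. In post-hyperglycemia versus BBDR.+/+ glycemic state and the lyp genotype differ together and cannot be told apart. The labels give no sex. They also describe fasted rats, whereas by the methods food was freely available. Nothing beyond the numbered labels says whether replicates were separate rats, so p-values rest on the spread between these samples. That spread was partly pooled over all probe sets. By the methods liver was taken repeatedly at several ages, so pre- and post-hyperglycemia arrays may come from the same rats. No label ties an array to an animal, and the comparison was made as between unrelated samples.

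P450 enzymes are heme proteins of the endoplasmic reticulum that insert an atom of oxygen into lipophilic molecules, using electrons passed on by the reductase Por. Families 1 to 3 act mainly on drugs, other foreign compounds and steroids, and family 4 acts mainly on fatty acids and eicosanoids. Hepatocytes hold most of the body's supply. Their genes are driven by ligand-activated receptors, the aryl hydrocarbon receptor for Cyp1a, the constitutive androstane receptor for Cyp2b, the pregnane X receptor for Cyp3a and PPAR alpha for Cyp4a. In the rat many of them are sex-biased, set by the sex-specific pattern of growth hormone release.

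The arrays were alike in scale, with medians of 5.90 to 5.94 (log2) and highest values of 14.60 to 14.62. They differed in the control probe sets for the ends of 2 transcripts, beta-actin and GAPDH. The mean 3' minus 5' difference was 1.68 and 1.74 on the post-hyperglycemia arrays, 0.93 and 1.09 on the pre-hyperglycemia arrays and 0.78 and 1.04 on the BBDR.+/+ arrays. The post-hyperglycemia arrays thus stood apart from the others with no overlap, and this difference cannot be told apart from the post-hyperglycemia state. A probe set was called where its adjusted p in limma, a linear model with a pooled variance, was under 0.05. With the 3' minus 5' difference as a covariate limma called 0 of 31042 probe sets in either comparison with post-hyperglycemia arrays (2171 and 2186 had an unadjusted p under 0.05), and the median standard error rose from 0.11 to 0.40 against BBDR.+/+ and 0.35 against pre-hyperglycemia. Pre-hyperglycemia versus BBDR.+/+ kept a median standard error of 0.12 under the covariate. The hepatocyte markers albumin, Apoa1, Ttr, Serpina1 and Apoc3 had 0 of 6 probe sets called in any comparison (adjusted p in limma), and their summed signal was 16.75 to 16.79 (log2) on all 6 arrays.

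Few members differed between groups, and they varied over the arrays about as much as other probe sets. Over the 6 arrays the median range of a member was 0.30 (log2), against 0.35 for all probe sets. Of the members, 13 had a mean signal above 12.32, the mean 99th percentile of the arrays, where 1% of all probe sets lie. Their median range was 0.19, against 0.19 for all 315 probe sets at that level, near the upper end of the array's scale where differences may be compressed. Another 13 had a mean below the array median. Levels are given per probe set and are not compared between genes, because probe sets differ in how strongly they bind. In bulk liver, fewer cells of a type and less RNA per cell cannot be told apart.

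**Figure D1:**
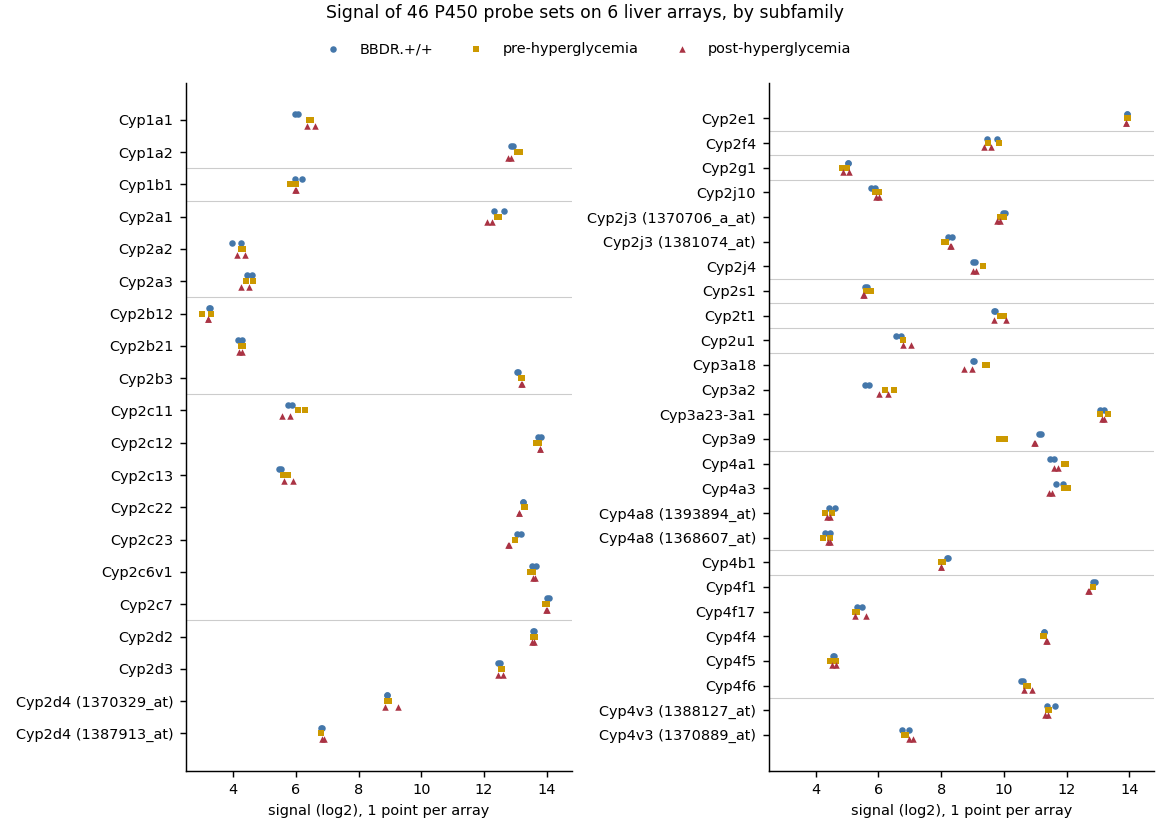
Signal (log2, horizontal axis) of each of the 46 P450 probe sets on the 6 liver arrays, ordered by subfamily (grey lines). Circles are BBDR.+/+, squares pre-hyperglycemia and triangles post-hyperglycemia arrays, 1 point per array. The median row spans 0.30, and Cyp3a9 has the widest spread at 1.31.

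Few members were called in limma (p-values adjusted by Benjamini-Hochberg over all probe sets). Post-hyperglycemia versus BBDR.+/+ called 1 of 46 members, Cyp1a1, which was higher, where 5.15% of all probe sets were called, 1.89% higher and 3.26% lower. Post- versus pre-hyperglycemia called 3, with Cyp3a9 higher and Cyp3a18 and Cyp4a3 lower, where 2.18% of all probe sets were called, 0.718% higher and 1.46% lower. Pre-hyperglycemia versus BBDR.+/+ called 2, with Cyp3a2 higher and Cyp3a9 lower, where 0.718% of all probe sets were called, 0.464% higher and 0.254% lower. As shares of the 46 members these counts were 2.17%, 6.52% and 4.35%. At an unadjusted p under 0.05 the counts were 7, 8 and 7 members. The members' median differences were -0.00, -0.03 and 0.01 (log2) in the same order, against 0.01, 0.01 and -0.00 over all probe sets, and 42, 42 and 39 members lay within 0.3 of 0. The comparisons share arrays, so their values are set side by side and no overlap was tested.

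The rank product, which the methods name beside a t-test, was run at a false discovery rate of 20%. It called 0 members against BBDR.+/+ (2.4% of all probe sets were called), Cyp3a9 as higher in post- versus pre-hyperglycemia (1.74% of all), and Cyp3a2 as higher and Cyp3a9 as lower in pre-hyperglycemia versus BBDR.+/+ (1.32% of all).

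**Figure D2:**
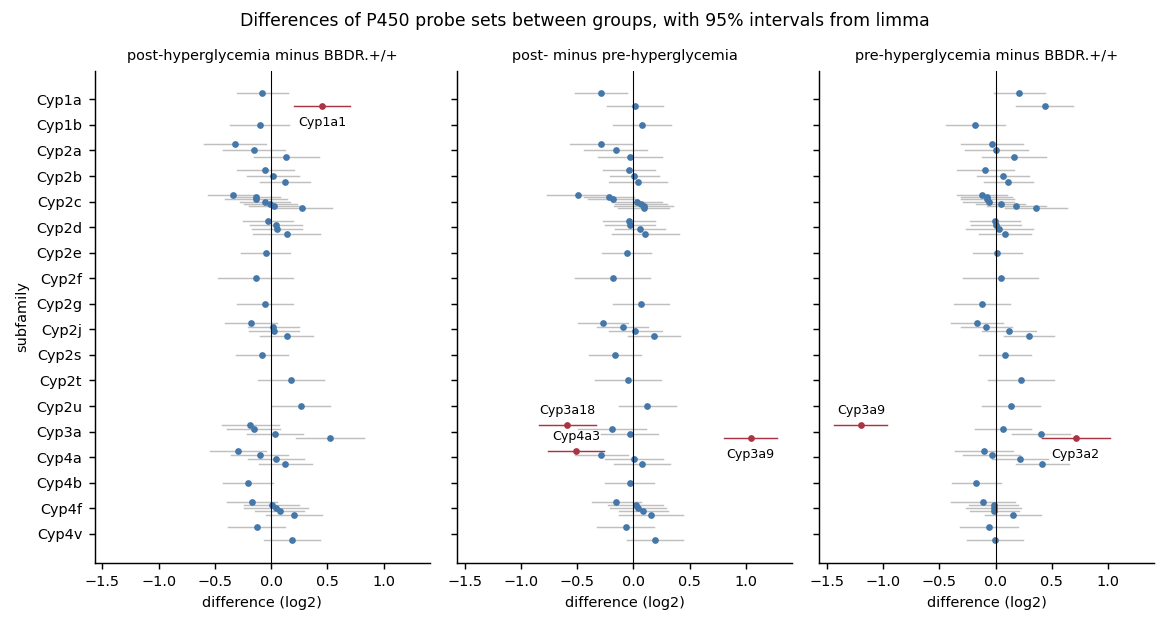
Differences between groups (log2, horizontal axis) of the 46 P450 probe sets by subfamily, with 95% intervals from limma, in the 3 comparisons. Red marks an adjusted p under 0.05. Post-hyperglycemia minus BBDR.+/+ has 1 red point, post- minus pre-hyperglycemia 3 and pre-hyperglycemia minus BBDR.+/+ 2, of which 4 are in Cyp3a.

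The Cyp3a subfamily, which oxidizes steroids and a large share of drugs, held 4 of the 6 calls and had the largest median range over arrays among the 10 subfamilies with several probe sets (0.84). Its members did not move alike. Cyp3a9, an isoform that is higher in female than in male rat liver, had signals of 11.17 and 11.11 on the BBDR.+/+ arrays, 10.03 and 9.86 before hyperglycemia and 10.995 and 10.97 after. The pre-hyperglycemia arrays lay below all others. It was 2.29-fold lower before hyperglycemia than in BBDR.+/+ (a log2 difference of -1.20, SE 0.11, adjusted p = 0.00105 in limma) and rose 2.06-fold to post-hyperglycemia (1.04, SE 0.11, adjusted p = 0.00182 in limma). Against BBDR.+/+ the post-hyperglycemia difference was -0.16, with a 95% interval of -0.39 to 0.08. The calls remained with any of the 6 arrays left out, at -1.29 to -1.11 and at 0.95 to 1.13. With the 3' minus 5' covariate the first stayed called (-1.24, adjusted p = 0.00743 in limma) and the second did not (0.73, adjusted p = 0.718).

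Cyp3a18, a male-predominant steroid hydroxylase, ran the other way. Its signal was 9.40 and 9.47 before hyperglycemia, 9.01 and 9.05 in BBDR.+/+ and 8.72 and 8.98 after hyperglycemia, so the pre-hyperglycemia arrays lay above all others. It fell by 0.59 from pre- to post-hyperglycemia (SE 0.12, adjusted p = 0.0285 in limma). The pre-hyperglycemia difference from BBDR.+/+ was 0.40 (interval 0.15 to 0.66) and did not pass (adjusted p = 0.180). The call was kept only without post-hyperglycemia replicate 2 (-0.72) and was lost without either BBDR.+/+ array (-0.59), without pre-hyperglycemia replicate 1 (-0.62) or 2 (-0.55) and without post-hyperglycemia replicate 1 (-0.45). It was also lost with the 3' minus 5' covariate (-0.32).

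Cyp3a2, the main male Cyp3a form of the adult rat, lay near the array median. Its signal was 5.57 and 5.70 in BBDR.+/+, 6.50 and 6.20 before hyperglycemia and 6.01 and 6.30 after. The BBDR.lyp/lyp arrays were all above the BBDR.+/+ arrays and overlapped each other. The rise over BBDR.+/+ was 0.71 before hyperglycemia (SE 0.14, adjusted p = 0.0487 in limma), while the difference of 0.52 after hyperglycemia missed the threshold (SE 0.14, adjusted p = 0.0551). The pre-hyperglycemia call was lost without pre-hyperglycemia replicate 1 (0.56) or 2 (0.86), without BBDR.+/+ replicate 1 (0.65) or 2 (0.78) and with the covariate (0.71, adjusted p = 0.123 in limma). The post-hyperglycemia difference passed in limma without either pre-hyperglycemia array (adjusted p = 0.0394), with median centring (0.54, adjusted p = 0.0481), with the intensity trend (adjusted p = 0.0414) and with the brightest 60% of probe sets (adjusted p = 0.0370). It did not pass with the covariate (0.55, adjusted p = 0.870).

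Cyp3a23-3a1, the form induced through the pregnane X receptor, did not follow them. Its mean signal was above the mean 99th percentile of the arrays, where differences may be compressed. Its signal was 13.07 and 13.19 in BBDR.+/+, 13.31 and 13.08 before hyperglycemia and 13.13 and 13.18 after, with the groups overlapping. The differences were 0.03 against BBDR.+/+ after hyperglycemia (interval -0.22 to 0.28), -0.03 from pre- to post-hyperglycemia (-0.29 to 0.22) and 0.07 before hyperglycemia (-0.19 to 0.32). Whether the Cyp3a genes differed from each other in their change was not tested.

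**Figure D3:**
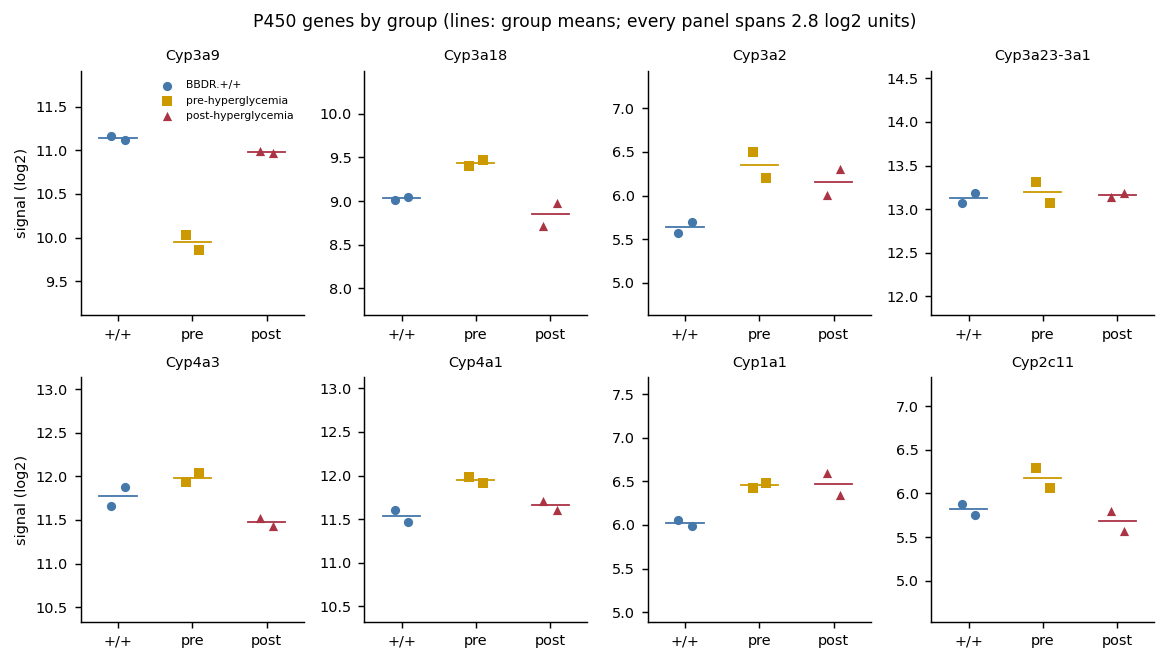
Signal (log2, vertical axis) of 8 P450 genes on each array, by group (BBDR.+/+, pre-hyperglycemia, post-hyperglycemia). Points are arrays, lines are group means, and every panel spans 2.8 log2 units. In Cyp3a9 the pre-hyperglycemia arrays are the lowest, and in Cyp3a18, Cyp4a3, Cyp4a1 and Cyp2c11 they are the highest.

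The 4 Cyp3a genes lie on rat chromosome 12. Their upstream sequences are shown because these genes of 1 subfamily on 1 chromosome had different patterns. Each is the 250 bases before the annotated start in the GRCr8 assembly (sequences from RefSeq), read 5' to 3' on the gene's strand. Capitals mark AGGTCA, the core hexamer read by many nuclear receptors, and CACGTG, the E-box read by clock and other basic helix-loop-helix factors.
Cyp3a9, chr12:21960161-21960410 (- strand): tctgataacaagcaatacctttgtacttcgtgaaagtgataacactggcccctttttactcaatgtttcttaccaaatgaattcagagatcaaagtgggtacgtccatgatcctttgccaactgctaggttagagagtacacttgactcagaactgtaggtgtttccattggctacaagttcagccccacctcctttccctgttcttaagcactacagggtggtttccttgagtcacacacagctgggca
Cyp3a18, chr12:13994062-13994311 (+ strand): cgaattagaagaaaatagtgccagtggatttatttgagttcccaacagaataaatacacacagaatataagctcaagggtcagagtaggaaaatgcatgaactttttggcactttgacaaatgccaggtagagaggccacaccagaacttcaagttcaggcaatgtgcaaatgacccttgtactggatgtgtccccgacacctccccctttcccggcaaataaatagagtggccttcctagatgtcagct
Cyp3a2, chr12:14343858-14344107 (- strand): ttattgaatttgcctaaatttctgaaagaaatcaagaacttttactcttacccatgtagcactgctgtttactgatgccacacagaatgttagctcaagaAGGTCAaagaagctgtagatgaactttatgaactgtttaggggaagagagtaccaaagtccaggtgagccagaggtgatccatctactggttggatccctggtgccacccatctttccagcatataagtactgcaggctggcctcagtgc
Cyp3a23-3a1, chr12:14398804-14399053 (- strand): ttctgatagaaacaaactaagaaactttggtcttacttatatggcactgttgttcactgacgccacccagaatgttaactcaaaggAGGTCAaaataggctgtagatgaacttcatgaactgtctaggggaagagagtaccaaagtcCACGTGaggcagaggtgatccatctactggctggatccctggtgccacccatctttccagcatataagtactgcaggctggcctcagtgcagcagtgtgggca

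Aligned over their length, the Cyp3a2 and Cyp3a23-3a1 sequences were 79.2% identical, although only the first gene was called. Cyp3a9 shared 53.0% to 58.5% with the other 3. The window of Cyp4a3, a family 4 gene on chromosome 5, shared 54.3% with Cyp3a9 and 50.0% with Cyp3a2. Identity at that level therefore does not mark the subfamily. AGGTCA stood 150 bases before the start of Cyp3a2 and 164 bases before that of Cyp3a23-3a1, and CACGTG 103 bases before that of Cyp3a23-3a1. Neither they nor TTATGTAA (the PAR bZIP element), GCGTG (the core read by the aryl hydrocarbon receptor), TATAAA and TTGCAA (a C/EBP core) were found in the windows of Cyp3a9 and Cyp3a18, on either strand. Of the 35 member genes with an upstream sequence, 12 held AGGTCA, 1 held TTATGTAA, 6 held GCGTG, 10 held TATAAA, 2 held CACGTG and 4 held TTGCAA. The shares of all 27457 promoters with the motif were 13.7%, 0.816%, 27.2%, 13.1%, 5.79% and 4.96%. These matches are descriptions of letters and not of binding.

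The Cyp4a enzymes, omega-hydroxylases of fatty acids and textbook targets of PPAR alpha, had their highest group mean before hyperglycemia in both genes that lay well above the array median. Cyp4a3 had signals of 11.66 and 11.88 in BBDR.+/+, 11.93 and 12.04 before hyperglycemia and 11.53 and 11.43 after. The post-hyperglycemia arrays were below all others. It fell by 0.51 from pre- to post-hyperglycemia (SE 0.11, adjusted p = 0.0465 in limma), and the differences from BBDR.+/+ were -0.29 after (interval -0.54 to -0.05) and 0.21 before hyperglycemia (-0.04 to 0.46). No call was left without any 1 of the 6 arrays (-0.56 to -0.45), and with the 3' minus 5' covariate the difference was -0.02.

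Cyp4a1 had signals of 11.60 and 11.46 in BBDR.+/+, 11.98 and 11.91 before hyperglycemia and 11.71 and 11.61 after. The pre-hyperglycemia arrays lay above all others. Its differences were 0.41 before hyperglycemia against BBDR.+/+ (interval 0.18 to 0.65) and -0.29 from pre- to post-hyperglycemia (-0.52 to -0.05), and neither passed (adjusted p = 0.137 and 0.223 in limma). With an intensity trend in limma's variance both passed (adjusted p = 0.0128 and 0.0481). The 2 probe sets of Cyp4a8 stayed between 4.25 and 4.60, below the array median, with no call.

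The other family 4 subfamilies had 0 of 8 probe sets called in any comparison in limma. Over all probe sets 5.15%, 2.18% and 0.718% were called in the order of the comparisons above. Cyp4b1, which hydroxylates fatty acids and small aromatic compounds, had signals of 8.17 and 8.23 in BBDR.+/+, 8.01 and 8.05 before hyperglycemia and 7.991 and 8.0004 after, so the BBDR.+/+ arrays were the highest. Its post-hyperglycemia difference from BBDR.+/+ was -0.21 (interval -0.43 to 0.01). The Cyp4f enzymes, some of which inactivate leukotrienes, had ranges over the arrays from 0.11 for Cyp4f4 (11.25 to 11.36) to 0.35 for Cyp4f6 (10.54 to 10.89) and Cyp4f17 (5.26 to 5.61). Cyp4f1 lay between 12.69 and 12.91 and Cyp4f5 between 4.47 and 4.65. The medians of the 5 Cyp4f probe sets were 0.04 and 0.04 after hyperglycemia against BBDR.+/+ and pre-hyperglycemia, and -0.02 before. Cyp4v3, a fatty acid hydroxylase, had 2 probe sets that differed in sign after hyperglycemia against BBDR.+/+ (-0.13 and 0.19), and neither was called.

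Family 1 holds the aryl hydrocarbon receptor targets. Cyp1a1, which oxidizes polycyclic aromatic compounds, had signals near the array median of 6.06 and 5.98 in BBDR.+/+, 6.43 and 6.49 before hyperglycemia and 6.60 and 6.34 after. The BBDR.lyp/lyp arrays were all above the BBDR.+/+ arrays. It was 1.37-fold higher after hyperglycemia than in BBDR.+/+ (0.45, SE 0.11, adjusted p = 0.0477 in limma). The pre-hyperglycemia difference from BBDR.+/+ was of almost the same size and did not pass (0.44, SE 0.11, adjusted p = 0.143 in limma). Post- minus pre-hyperglycemia was 0.01 (interval -0.24 to 0.27). The call was kept only without post-hyperglycemia replicate 2 (0.58). It was lost without post-hyperglycemia replicate 1 (0.32), without BBDR.+/+ replicate 1 (0.49) or 2 (0.42), and without either pre-hyperglycemia array (adjusted p = 0.0588 in limma), where Cyp3a2 was the 1 member called in its place. With the 3' minus 5' covariate the difference was 0.25 and not called.

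Cyp1a2, the abundant liver form that metabolizes caffeine, differed from it. Its signal was 12.87 and 12.92 in BBDR.+/+, 13.05 and 13.16 before hyperglycemia and 12.86 and 12.77 after, with the pre-hyperglycemia arrays the highest. The differences were -0.29 from pre- to post-hyperglycemia (interval -0.52 to -0.06) and 0.21 before hyperglycemia against BBDR.+/+ (-0.02 to 0.44), and neither passed. With the intensity trend the first passed (adjusted p = 0.0229 in limma). Cyp1b1, an estrogen hydroxylase found mostly outside the liver, lay between 5.81 and 6.20 with no call.

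Family 2, the largest, had 0 of 27 probe sets called in each comparison in limma, with medians of -0.01, -0.03 and 0.03 in the order of the comparisons above (after hyperglycemia against BBDR.+/+, after against before, and before against BBDR.+/+). In that order 5.15%, 2.18% and 0.718% of all probe sets were called. The 10 members of family 2 above the 99th percentile, where differences may be compressed, had ranges over the arrays from 0.07 for Cyp2e1 to 0.55 for Cyp2a1. Cyp2e1, which oxidizes ethanol, acetone and other small molecules and is known for its induction in insulin deficiency, lay between 13.88 and 13.95 on all arrays, and its post-hyperglycemia difference from BBDR.+/+ was -0.05 (interval -0.26 to 0.17). Cyp2c7, a retinoic acid hydroxylase, lay between 13.94 and 14.08. Cyp2d2, the counterpart of the human debrisoquine hydroxylase, lay between 13.53 and 13.62. Cyp2b3, a Cyp2b form that phenobarbital does not induce, lay between 13.06 and 13.22, with intervals of its differences between -0.21 and 0.34.

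Among the family 2 subfamilies with several probe sets the median range over arrays was lowest in Cyp2d (0.13, 4 probe sets), followed by Cyp2b (0.16, 3), Cyp2c (0.20, 7) and Cyp2j (0.25, 4), and highest in Cyp2a (0.41, 3). Cyp2c23, the epoxygenase of arachidonic acid, had the lowest adjusted p of family 2 against BBDR.+/+. Its signal was 13.06 and 13.17 in BBDR.+/+, 13.001 and 12.992 before hyperglycemia and 12.76 and 12.79 after, so the groups did not overlap and the post-hyperglycemia arrays were lowest. The difference was -0.34 (interval -0.56 to -0.12) and did not pass (adjusted p = 0.0864 in limma). It passed with the intensity trend (adjusted p = 0.00397), with the brightest 60% of probe sets (adjusted p = 0.0490) and with a gene's probe sets averaged (adjusted p = 0.0499), and was -0.10 with the 3' minus 5' covariate. Cyp2j4, an arachidonic acid epoxygenase of gut and liver, had signals of 9.065 and 9.003 in BBDR.+/+, 9.33 and 9.34 before hyperglycemia and 9.03 and 9.10 after. The pre-hyperglycemia arrays lay above all others, by 0.30 against BBDR.+/+ (interval 0.08 to 0.52), with no call. Cyp2j3 had 2 probe sets that disagreed in sign from pre- to post-hyperglycemia (-0.10 and 0.18), neither called. The remaining single-gene subfamilies also had no call, with signals of 9.37 to 9.85 for Cyp2f4 and 9.69 to 10.08 for Cyp2t1, 6.57 to 7.03 for Cyp2u1, 5.51 to 5.76 for Cyp2s1 and 4.84 to 5.08 for Cyp2g1.

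The sex-predominant P450 genes of the rat were set side by side because growth hormone controls them. Of the male-predominant forms, Cyp2c11, the main male steroid hydroxylase, had signals of 5.88 and 5.75 in BBDR.+/+, 6.29 and 6.06 before hyperglycemia and 5.80 and 5.57 after. The pre-hyperglycemia arrays were highest, and the difference from pre- to post-hyperglycemia was -0.49 (SE 0.13, adjusted p = 0.0771 in limma), which passed with the brightest 60% of probe sets (adjusted p = 0.0493). Cyp2c13 lay between 5.45 and 5.90, on a probe set whose letter code marks probes that several transcripts share, and Cyp2a2 lay between 3.98 and 4.39. The mean signals of Cyp2c11, Cyp2c13 and Cyp2a2 were below the array median. Of the female-predominant forms, Cyp2c12, a hydroxylase of sulfated steroids, lay between 13.65 and 13.82. Cyp2a1, a testosterone hydroxylase, had signals of 12.33 and 12.64 in BBDR.+/+, 12.48 and 12.43 before hyperglycemia and 12.24 and 12.09 after. Its post-hyperglycemia arrays were the lowest, at -0.32 from BBDR.+/+ (interval -0.60 to -0.05) with no call.

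Before hyperglycemia against BBDR.+/+, 1 of the 4 female-predominant forms was called (Cyp3a9, lower) and Cyp2c12, Cyp2c7 and Cyp2a1 were not, and 1 of the 5 male-predominant forms was called (Cyp3a2, higher, with the losses given above) and Cyp2c11, Cyp2c13, Cyp2a2 and Cyp3a18 were not. The labels do not give the rats' sex. Probe sets of sex-linked genes were read for this: 3 of the 4 for Xist, the transcript of the inactive X, lay between 10.24 and 11.38 on all arrays and that of Eif2s3y, on the Y, between 2.27 and 2.62. On Xist and Eif2s3y, among 3 sex-linked genes measured, all arrays read as female. The fourth Xist probe set was 8.26 and 8.18 in BBDR.+/+, 8.76 and 8.78 before hyperglycemia and 8.07 and 8.16 after, and was called as higher before hyperglycemia in both comparisons (0.55 and -0.65 on the log2 scale, adjusted p = 0.0439 and 0.0110 in limma). Among other genes that are higher in male liver, 1 of 10 probe sets was called higher (Hsd3b5, a steroid dehydrogenase, 0.80) and 1 lower (Hsd17b2, which inactivates estradiol, -0.53) after hyperglycemia against BBDR.+/+, and none from pre- to post-hyperglycemia or before hyperglycemia. Among genes that are higher in female liver, 1 of 10 was lower in each comparison: a probe set of Prlr, the prolactin receptor, after hyperglycemia (-1.52 against BBDR.+/+ and -1.23 against pre-hyperglycemia, with 2 brighter probe sets of the gene not called) and A1bg, a plasma glycoprotein, before it (-0.59). Over all probe sets 5.15%, 2.18% and 0.718% were called after hyperglycemia against BBDR.+/+, from pre- to post-hyperglycemia and before hyperglycemia.

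The electron supply was read from 19 probe sets of 16 of 17 listed genes of reductases, cytochrome b5 and heme synthesis and breakdown. Por, the reductase that all these P450 enzymes need, was measured by 2 probe sets that disagreed. The first had signals of 8.55 and 8.92 in BBDR.+/+, 8.65 and 9.02 before hyperglycemia and 7.85 and 8.18 after, so the post-hyperglycemia arrays were below all others. It was lower by 0.72 than in BBDR.+/+ and by 0.82 than before hyperglycemia (SE 0.17 each, adjusted p = 0.0324 and 0.0317 in limma). The second, the brighter, had 9.39 and 9.52, 9.55 and 9.71, and 9.55 and 9.62 in the same order, with differences of 0.13 and -0.05 and no call. Leaving out post-hyperglycemia replicate 1 ended both calls, as did leaving out BBDR.+/+ replicate 2 for the first and pre-hyperglycemia replicate 2 for the second. With the 3' minus 5' covariate the first probe set's differences turned to 0.71 and 0.43. The other call of this list was Blvrb, a biliverdin reductase, which fell by 0.69 from pre- to post-hyperglycemia (adjusted p = 0.017 in limma), and 0 of 19 were called before hyperglycemia. In the order of the comparisons above 5.26%, 10.5% and 0% of the list were called, against 5.15%, 2.18% and 0.718% of all probe sets. Hmox1, which breaks down heme, differed by 0.51 after hyperglycemia from BBDR.+/+ and did not pass (adjusted p = 0.0550 in limma).

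Of the receptors and factors that drive P450 genes, 45 probe sets of 25 of 26 listed genes were measured. After hyperglycemia 0 were higher and 3 lower than in BBDR.+/+ (Ahr, the receptor behind Cyp1a, Hnf4a, a master factor of hepatocytes, and the corepressor Ncor1). From pre- to post-hyperglycemia 2 probe sets of Hlf, a PAR bZIP clock output factor, were higher, and those of Foxa3 and 2 of Hnf4a lower. None of the 45 was called before hyperglycemia in limma. These calls were 6.67%, 11.1% and 0% of the list, where 5.15%, 2.18% and 0.718% of all probe sets were called. Both Hlf calls were lost whichever array was left out, and other Hlf probe sets were not called (0.11 and 0.13). Ahr was -0.84 (adjusted p = 0.0101 in limma) on 1 probe set and 0.00 on another. The call was lost without BBDR.+/+ replicate 2 or post-hyperglycemia replicate 2, and the difference turned to 0.29 with the 3' minus 5' covariate. Hnf4a was measured by several probe sets, and the brightest, at 12.40 and 12.26 in BBDR.+/+, 11.97 and 11.90 before hyperglycemia and 12.22 and 12.12 after, was not called. A dimmer one had 8.01 and 8.34, 8.50 and 8.74, and 7.43 and 7.65, and fell by 1.08 from pre- to post-hyperglycemia (adjusted p = 0.00505 in limma), a difference of -0.08 with the covariate. No call of a listed gene that involves post-hyperglycemia arrays was kept with the covariate.

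The growth hormone signal that sets the sex bias of P450 genes was read from 16 probe sets of 10 of 10 listed genes. After hyperglycemia 1 was higher and 7 were lower than in BBDR.+/+, 50% of the list where 5.15% of all probe sets were called (1.89% higher and 3.26% lower), with a median difference of -0.26 against 0.01 over all probe sets. The 3' minus 5' difference moves with this group, and with it as a covariate 0 were called, Ghr was -0.64, Jak2 -0.07 and 1 Cish probe set 0.50 in place of -2.01, -0.58 and -0.94. From pre- to post-hyperglycemia 1 was higher and 4 were lower, and before hyperglycemia 1 was higher and 1 lower. These calls were 31.25% and 12.5% of the list, where 2.18% and 0.718% of all probe sets were called. Bcl6, a transcriptional repressor of female-biased genes, had signals of 6.43 and 6.46 in BBDR.+/+, 6.49 and 6.47 before hyperglycemia and 7.35 and 7.22 after. The post-hyperglycemia arrays stood well above the others, with differences of 0.84 from BBDR.+/+ and 0.80 from pre-hyperglycemia (adjusted p = 0.00147 and 0.00460 in limma). Ghr, the growth hormone receptor, had 9.65 and 10.08, 8.87 and 9.02, and 7.59 and 8.12 on 1 probe set. The groups did not overlap, and it was lower by 2.01 after hyperglycemia than in BBDR.+/+ (adjusted p = 0.000398 in limma). A second, brighter Ghr probe set was not called. Onecut1 (Hnf6), an activator of female-type Cyp2c12, was lower on both probe sets against BBDR.+/+ (-1.25 and -0.63), while Cyp2c12 itself was 0.03 (interval -0.20 to 0.26). Socs2, a growth hormone target, had 7.07 and 7.30, 8.06 and 8.39, and 6.84 and 7.25, and was higher before hyperglycemia (1.04, adjusted p = 0.0168 in limma) than in BBDR.+/+ and lower after than before (-1.18, adjusted p = 0.00605). Both Bcl6 calls, those of Ghr (-2.01) and Onecut1 (-1.25) against BBDR.+/+ and that of the Socs2 fall were kept with any 1 array left out. Every other call of this list was lost when some arrays were left out.

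**Figure D4:**
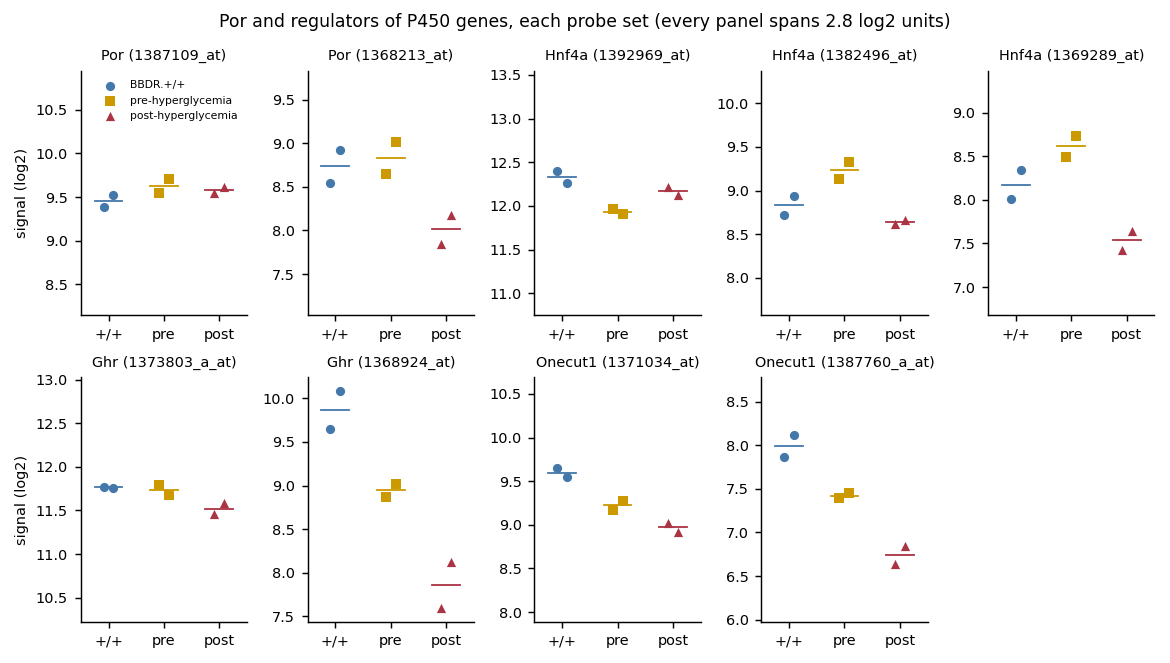
Signal (log2, vertical axis) of each probe set of Por, Hnf4a, Ghr and Onecut1 on each array, by group (BBDR.+/+, pre-hyperglycemia, post-hyperglycemia). Points are arrays, lines are group means, and every panel spans 2.8 log2 units. The dimmer Por probe set is lowest after hyperglycemia, and the brighter is not.

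Targets of PPAR alpha beside Cyp4a stood among the 20 probe sets of 16 of 20 listed receptor targets. Those called were Cpt1a, Ehhadh and Vnn1. Cpt1a, the entry enzyme of mitochondrial fatty acid oxidation, had 10.59 and 10.62 in BBDR.+/+, 11.37 and 11.47 before hyperglycemia and 10.60 and 10.54 after. The pre-hyperglycemia arrays were far above the rest, by 0.81 against BBDR.+/+ (adjusted p = 0.00574 in limma), and the signal fell by 0.85 after (adjusted p = 0.00361). A second, dimmer Cpt1a probe set had 8.26 and 8.37, 8.50 and 8.74, and 7.05 and 7.34, so that its post-hyperglycemia arrays lay below all others. It was lower by 1.13 than in BBDR.+/+ and by 1.43 than before hyperglycemia (adjusted p = 0.00120 and 0.00127 in limma). Both calls were kept with any 1 array left out. The first probe set was -0.04 against BBDR.+/+, and the second was not called before hyperglycemia (0.30). With the covariate its differences were -0.43 and -0.82. Vnn1, a pantetheinase, had 6.68 and 6.58, 7.77 and 7.64, and 7.003 and 7.301, and was called in all 3 comparisons (1.07 before hyperglycemia, 0.52 after, both against BBDR.+/+, and -0.55 from before to after). Ehhadh, of peroxisomal fatty acid oxidation, fell by 0.75 from pre- to post-hyperglycemia (adjusted p = 0.0323 in limma). The list had 1 higher and 2 lower, 0 higher and 5 lower, and 2 higher and 0 lower in the order of the comparisons above, with medians of -0.14, -0.33 and 0.16. These calls were 15%, 25% and 10% of the list, where 5.15%, 2.18% and 0.718% of all probe sets were called. Medians over all probe sets were 0.01, 0.01 and -0.00. Ephx1, the microsomal epoxide hydrolase that acts on P450 products, was lower after hyperglycemia than in BBDR.+/+ (-0.45) and than before hyperglycemia (-0.52, adjusted p = 0.0438 and 0.0404 in limma). Each call of Vnn1, Ehhadh and Ephx1 was lost when some arrays were left out. The same held for the call of the first Cpt1a probe set before hyperglycemia, while the call of its fall was kept.

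The P450 families beyond 4 had 22 probe sets of 18 of 21 listed genes, and every call among them was upward. In the order of the comparisons above 4.55%, 13.6% and 4.55% of the list were called, against 5.15%, 2.18% and 0.718% of all probe sets. Cyp7a1, the rate-limiting enzyme of bile acid synthesis, had 11.96 and 11.80 in BBDR.+/+, 11.53 and 11.43 before hyperglycemia and 12.05 and 12.07 after. The pre-hyperglycemia arrays were the lowest, as for Cyp3a9, and it rose by 0.58 to post-hyperglycemia (adjusted p = 0.0204 in limma). Cyp39a1, an oxysterol hydroxylase, and Cyp26a1, a retinoic acid hydroxylase, rose by 0.62 and 0.65 in the same comparison (adjusted p = 0.0323 and 0.0317 in limma). With 1 array left out the rises were 0.54 to 0.63 for Cyp7a1, 0.44 to 0.79 for Cyp39a1 and 0.45 to 0.84 for Cyp26a1. Each of these calls was lost when some arrays were left out. Cyp26b1, which also degrades retinoic acid, had 6.50 and 6.14, 7.61 and 7.21, and 7.11 and 7.02, and was higher than in BBDR.+/+ both before (1.09, adjusted p = 0.0103 in limma) and after hyperglycemia (0.74, adjusted p = 0.0198). The second of these turned to -0.59 with the 3' minus 5' covariate, while the first stayed called (0.92, adjusted p = 0.0185 in limma). The first was lost without pre-hyperglycemia replicate 1 or either BBDR.+/+ array, and the second without BBDR.+/+ replicate 2 or either post-hyperglycemia array. Another Cyp26b1 probe set was not called (0.07 and -0.26).

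Some markers of other cells also differed between groups, and their part in the P450 differences was not tested. From pre- to post-hyperglycemia, where 3 P450 probe sets were called, 0 neutrophil and 0 Kupffer cell probe sets were called. Of 3 neutrophil marker probe sets, S100a8 and S100a9 were higher both after and before hyperglycemia than in BBDR.+/+, and the summed signal was 6.33 to 6.35 in BBDR.+/+, 7.44 to 7.86 before and 7.48 to 7.58 after. Of 5 Kupffer cell probe sets, those of Cd163, Cd5l and Clec4f were higher after hyperglycemia than in BBDR.+/+, with a summed signal of 12.50 to 12.51, 12.77 to 12.78 and 12.86 to 13.01 in the same order. Of 6 pancreatic acinar probe sets, Cpa1, a carboxypeptidase, was higher after than before hyperglycemia (8.29 and 8.27 against 7.01 and 7.35, with 8.15 and 7.75 in BBDR.+/+). Like Cyp3a9 it was lowest before hyperglycemia, while the summed acinar signal was 8.83 to 9.10, 8.77 to 8.87 and 9.16 to 9.18. Of 15 acute phase probe sets, 3 were higher (Fga, Lbp and Stat3) and 1 lower (Crp) after hyperglycemia than in BBDR.+/+, 1 was lower from pre- to post-hyperglycemia (A2m) and 2 were higher before hyperglycemia (A2m and Lbp). Endothelial, stellate, cholangiocyte and erythroid markers had 1, 2, 0 and 0 probe sets called after hyperglycemia against BBDR.+/+, 0, 2, 0 and 0 from pre- to post-hyperglycemia and 0, 2, 0 and 1 before hyperglycemia. Over all probe sets 5.15%, 2.18% and 0.718% were called in the same order of comparisons.

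Of the 6 calls among the P450 probe sets, the 2 of Cyp3a9 remained with any 1 array left out and the 4 others did not. Of the 41 calls among the listed genes, 9 remained and 32 were lost with at least 1 array left out.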

How the data were processed

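RNA of 6 rat liver samples was hybridized to Affymetrix RG230 2.0 arrays. The deposited log2 values were normalized by the authors in Expression Console and Partek (versions and algorithm: not given in the sources used here). They were not renormalized. Control probe sets (57 of 31099) were left out. Gene symbols came from GEO's platform annotation (20826 probe sets with 1 symbol, 436 with several, 9780 with none), and all 42 member genes were found by Entrez ID in RefSeq.

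A mean per group was fitted over all 6 arrays with limma 3.58.1 in R 4.3.3 (3 residual and 7.70 prior degrees of freedom), and p-values were adjusted by Benjamini-Hochberg over all probe sets. Intervals are 95%. The brightest probe set stood for a gene, and others are named where they disagree. Two-sided tests were used. The number of arrays limits the precision. Members and lists were chosen with earlier results of these data known. Genes were named if called, brightest in their subfamily or textbook liver P450 forms, and from the lists if called. The fit and the rank product (100 permutations) were tested on simulated data. Alternatives were other centring, normalization, filters, models and tests, and each array left out. Promoters were the 250 bases before the start (GRCr8, RefSeq), found for 35 of 42 genes, and aligned with Biopython 1.88.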

Additional observations from a re-analysis of the deposited data

How the results depend on the processing

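Counts of called P450 probe sets are given in the order post-hyperglycemia versus BBDR.+/+ (1 in the reported fit), after versus before hyperglycemia (3) and before hyperglycemia versus BBDR.+/+ (2), all by limma unless named. They were 2, 3 and 2 with median centring, 1, 2 and 1 with quantile normalization, 0, 2 and 1 with centring on ribosomal protein genes, 3, 4 and 2 with the brightest 60% of probe sets, 5, 5 and 3 with the intensity trend, 0, 0 and 1 with the 3' minus 5' covariate, 1, 1 and 2 with the arrays of a comparison alone, 3, 3 and 2 with a gene's probe sets averaged, 0, 0 and 0 with the methods' t-test after Benjamini-Hochberg and 7, 10 and 8 unadjusted, 0, 1 and 1 at an adjusted p of 0.01, 3, 4 and 2 at 0.1, and 0, 1 and 2 with the rank product. Leaving out each array in turn gave 0 to 1, 1 to 2 and 1 to 2. The labels number the replicates without saying that numbers mark a pair. With the replicate block the counts were 2, 4 and 2, the added members being Cyp3a2 (0.52, adjusted p = 0.0493) and Cyp2c11 (-0.49, adjusted p = 0.0242), and the correlations of same-numbered deviations were 0.26 (pre-hyperglycemia and BBDR.+/+), 0.11 (pre- and post-hyperglycemia) and 0.14 (BBDR.+/+ and post-hyperglycemia).

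With the 3' minus 5' covariate these differences turned sign: after hyperglycemia against BBDR.+/+, Cyp2a1 to 0.22, Cyp4a3 to 0.26, Por to 0.71, Ahr to 0.29, Hnf4a to 0.51, Cyp26b1 to -0.59 and Cish to 0.50; from pre- to post-hyperglycemia, Cyp2a1 to 0.18, Por to 0.43, the second Hnf4a probe set to 0.068, Ghr to 0.11 and Foxa3 to 0.10. The cause was not tested. Over all alternatives, values of named P450 genes kept direction and side of the threshold 311 times, gained a call 18 times and lost one 42 times. These counts pool the 6 called differences with others that were not called. Only the 6 could lose a call, so all 42 losses fell on them. With 2 arrays a group, a difference that missed the threshold is bounded only by its interval.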
